A study of Mus musculus with 18 samples.

Results

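Of the RNA-binding motif (Rbm) genes on the mouse X chromosome, 5 were followed here: Rbm3, Rbmx2, Rbm10, Rbm41 and Rbmx. They were taken by gene name from 28374 genes that could be matched between the 129 and Cast tables, 1048 of them X-linked, and the group was selected on the high share of Cast reads of Rbm3 and Rbmx2 in these same samples. A further 2 X-linked names start with Rbm, the antisense transcript Rbm3os and Rbm31y. Rbm31y had 0 reads in every sample, and neither is counted as a member. The samples were CD23+ B cells from spleens (CD23, a low-affinity IgE receptor, marks follicular B cells) of female F1 129S1/Cast mice heterozygous for Xist (Xist+/-). The naive group had no treatment (n = 3), and the CpG group (n = 3) was kept in vitro with CpG at 1 µM for 24 h. CpG oligonucleotides mimic bacterial DNA and are sensed in B cells by the receptor encoded by Tlr9. Both groups carry the Xist genotype, and no Xist wild-type sample enters these comparisons. By the labels, the Cast X chromosome is the inactive one in all of these cells, so Cast reads of an X-linked gene measure output of the inactive X. The age of the mice and whether samples were pooled are not given in the sources used here. Nor is it stated that replicates were separate animals, so p-values measure the spread between these samples. For each gene that spread was estimated in part from the other tested genes.

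Proteins of this family carry an RNA recognition motif, a fold that binds single-stranded RNA, and most act in splicing, RNA stability or translation. In female cells one X chromosome is silenced by Xist RNA, and genes that are still transcribed from it are said to escape. Activated B cells enlarge and divide, and genes for RNA processing are commonly raised in them.

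Gene reads per sample numbered 1987266 to 2928236 on the 129 side and 2465073 to 3321753 on the Cast side. Xist, the gene altered in these mice, had 586 to 922 reads per sample in the 129 tables and 4613 to 6930 in the Cast tables. Its reads were therefore mostly Cast, 87.5% ± 1.19 of them in naive cells and 88.3% ± 0.650 after CpG (SD, n = 3). Which bases of Xist were removed is not given in the sources used here, so the 129 reads do not check the genotype. The share of Cast reads over all autosomal genes ran from 52.0% to 53.6% in the 6 samples. The 9 matched B cell markers summed to between 7666 and 9592 CPM (counts scaled by all gene reads of both alleles of the sample) in naive and between 2740 and 3191 in CpG samples, and 9 of 9 tested were lower after CpG. Macrophage markers summed to between 3300 and 6722 CPM in naive samples and between 23.0 and 33.7 in CpG samples, with 15 of 15 tested lower. T cell markers summed to between 51.8 and 60.4 CPM in naive and between 5.56 and 7.29 in CpG samples, with 5 of 5 tested lower. Erythroid markers had sums of 31.7 to 62.2 against 0.480 to 1.13, with 3 of 3 tested lower. Neutrophil markers had sums of 4.73 to 28.1 against 0.337 to 1.13, and 0 of them were tested. Of all 10343 tested genes, 34.4% were called lower by edgeR at an adjusted p of 0.05. Markers at 0 in all CpG samples were Fcna of the 16 for macrophages, Cd3g of the 10 for T cells, Epor of the 4 for erythroid cells, and Camp and Ngp of the 6 for neutrophils. The part of these other cells in the changes below was not tested, and in bulk RNA fewer cells of a type and less RNA per cell cannot be told apart.

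The RefSeq table of promoters (build GRCm38.p6, the C57BL/6J reference) held 4 of the 5 members, Rbm10, Rbmx2, Rbmx and Rbm41. The stretches upstream of the annotated gene are shown for Rbmx2 and Rbmx because their output from the inactive X lay far apart, at Cast shares of 29.9% and 1.84% in naive cells. Each is written 5′ to 3′ on the strand of the gene, with CG dinucleotides in capitals. The Rbmx2 stretch is chrX:48694754-48695003 on the plus strand and the Rbmx stretch chrX:57393047-57393286 on the minus strand.
Rbmx2: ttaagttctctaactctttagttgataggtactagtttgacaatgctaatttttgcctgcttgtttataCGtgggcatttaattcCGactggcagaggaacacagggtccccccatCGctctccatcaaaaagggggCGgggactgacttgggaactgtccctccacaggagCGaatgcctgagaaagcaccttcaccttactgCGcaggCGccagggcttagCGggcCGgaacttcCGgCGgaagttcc
Rbmx: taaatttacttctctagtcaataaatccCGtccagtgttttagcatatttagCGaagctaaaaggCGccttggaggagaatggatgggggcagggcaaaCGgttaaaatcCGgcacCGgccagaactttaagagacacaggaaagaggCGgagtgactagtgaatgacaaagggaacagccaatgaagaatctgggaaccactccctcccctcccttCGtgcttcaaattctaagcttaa
The Rbmx stretch is printed for 240 of the 250 bases counted and shows 8 of its 9 CG dinucleotides. In the 250 bases before the start site there were 11 CG dinucleotides for Rbmx2, 9 for Rbmx, 20 for Rbm10 and 3 for Rbm41, where the median of 32851 promoters was 6. The letters CGGAAG, the core read by ETS factors, occurred 2 times in the Rbmx2 window on either strand and in none of the other 3, and 13.6% of all promoters hold them. GGGCGG, a GC box, was found in the windows of Rbmx2 and Rbm10 (32.7% of all promoters), and CCAAT in those of Rbmx and Rbm41 (33.9% of all promoters). These matches describe the reference letters only; no binding or methylation was measured in the samples described here.

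After CpG stimulation 3 of the 5 members were higher and none was lower. These comparisons hold no group cultured without CpG, so effects of CpG and of time in culture cannot be told apart here. Over both alleles summed, Rbmx2, Rbm3 and Rbm10 rose, against a background of 34.2% of 10343 tested genes called higher and 34.4% called lower by edgeR's quasi-likelihood test at an adjusted p of 0.05. The same 3 genes were called higher in the 129 tables, where all 5 members were tested and 28.2% of genes were called higher. They were also the 3 members with enough Cast reads to be tested in the Cast tables, where 30.7% of genes were called higher; Rbm41 and Rbmx did not pass the filter on low counts there. Rbm10 passed it through its CpG samples, so that the count of 3 was in part set by the filter. The median log2 fold change of the members was 0.95 over both alleles, and that of all tested genes was -0.01. Levels are given below as CPM on that same scale. They are not divided by gene length, so they compare samples and alleles of a gene and not different genes.

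**Figure D1:**
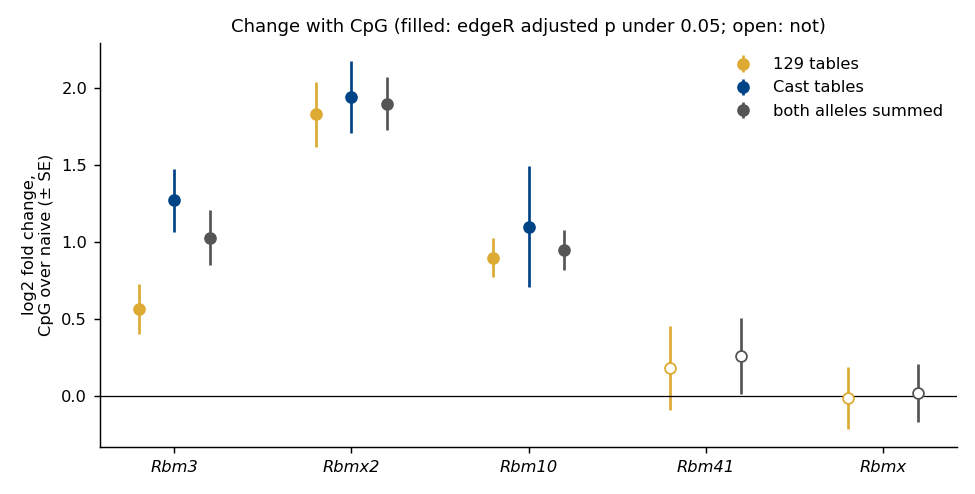
Log2 fold change of CpG over naive samples with its SE for each member in the 129 tables, the Cast tables and both alleles summed; filled points passed an edgeR adjusted p of 0.05. Rbmx2, Rbm3 and Rbm10 lie above 0 in every set of tables, while Rbm41 and Rbmx have open points near 0 and none for the Cast tables, where they were too low to test.

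Rbm3 encodes a glycine-rich protein induced by mild cold that binds RNA and favours translation. Its Cast tables held 851, 1074 and 615 reads in naive replicates 1, 2 and 3 and 2982, 1891 and 2796 after CpG. Its 129 tables held 628, 889 and 574 reads in naive and 1347, 1087 and 1449 in CpG samples. All 3 CpG samples had more Rbm3 from the Cast allele than any naive sample. On the 129 allele the groups met in level: CpG replicate 2, at 173.9 CPM, lay just below naive replicate 2 at 175.2.

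From the Cast allele, Rbm3 went from 172.7 ± 36.9 to 419.3 ± 104 CPM (SD, n = 3), which is a log2 fold change of 1.27 (± 0.21 SE, adjusted p = 5.54e-04 by edgeR). The 129 allele went from 142.8 ± 28.1 to 211.9 ± 33.1 CPM, a log2 fold change of 0.57 (± 0.16 SE, adjusted p = 0.0200 by edgeR). This second call was lost without naive replicate 1 (edgeR adjusted p = 0.0691), naive replicate 3 (0.0646), CpG replicate 1 (0.0585) or CpG replicate 3 (0.0692). Of the rise in the mean level of Rbm3 over both alleles, 315.7 CPM, the Cast allele gave 246.6, which is 78.1%. Summed over alleles the log2 fold change was 1.03 (± 0.18 SE, adjusted p = 6.63e-04 by edgeR). CpG replicate 2 had the lowest Rbm3 level of the CpG group on both alleles.

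In naive replicate 1 the Cast allele gave 57.5% of Rbm3 reads (55.0 to 60.0, 95% Wilson interval), in replicate 2 54.7% (52.5 to 56.9) and in replicate 3 51.7% (48.9 to 54.5). After CpG it was 68.9% (67.5 to 70.2), 63.5% (61.8 to 65.2) and 65.9% (64.4 to 67.3). The lowest CpG sample lay above the highest naive sample. By the reads as assigned, the Cast share of Rbm3 in naive cells was thus about that of autosomal genes, and in CpG cells it was higher. How reads shared with near-identical copies of Rbm3 were counted is not known, so output of the inactive X is uncertain to that extent. These intervals hold for counting error alone, because the sources used here describe no molecular identifiers that would tell PCR copies from molecules.

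Between same-numbered samples the Cast share of Rbm3 was higher after CpG by 11.4, 8.79 and 14.1 percentage points. A change of the Cast to 129 ratio was tested as an interaction over 10364 matched genes, of which 95, or 0.917%, were called in either direction. In that fit 0 of 5 members passed, and 1, Rbm3, had an unadjusted edgeR p under 0.05, as did 1179 of the 10364 genes. The log2 change of Rbm3 was 0.69 (± 0.13 SE, adjusted p = 0.0625 by edgeR). With the replicate number as a block, since same-numbered samples deviated together, Rbm3 passed with a log2 change of 0.69 (± 0.09 SE, adjusted p = 1.64e-08 by edgeR), where 779 genes were called in all and 3.83% of those tested toward Cast. Rbm3 was the only member called there. The block leaves few degrees of freedom per gene, so the p of that fit rests largely on spread estimated from other genes. The change in the ratio of Rbm3 was known when the members were chosen, so it is no independent evidence.

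**Figure D2:**
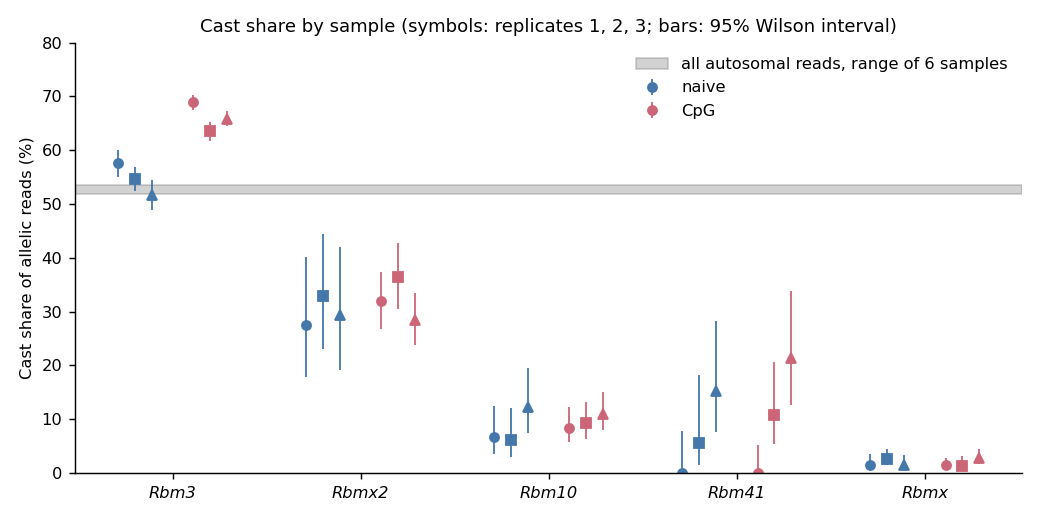
Cast share of allelic reads in percent for each member and sample, with 95% Wilson intervals, beside the range of all autosomal reads (grey band). Rbm3 lies near the band in naive samples, at 51.7% to 57.5%, and above it in CpG samples, at 63.5% to 68.9%. Rbmx2 lies between 27.6% and 36.5%, and Rbm10 and Rbmx stay at or below 12.3%. Rbm41 runs from 0 to 15.2% in naive and from 0 to 21.4% in CpG samples.

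A minimum of 30 reads, both alleles counted, was met in each sample by 185 X-linked genes. Among them Rbm3 ranked 2 by mean Cast share in naive and in CpG cells, where the median X-linked gene had 3.28% and 3.15%. Rbm3 was chosen for a high Cast share, so its place among X-linked and autosomal genes is a description. Of 7264 autosomal genes with as many reads, 38.0% had a mean Cast share at or above that of Rbm3 in naive cells, and 12.9% did in CpG cells. The X-linked genes nearest to Rbm3 in Cast share over the 6 samples were Praf2, Kdm5c, 5530601H04Rik, Xist and Eif2s3x. The closest, Praf2, still differed by a mean of 15.0 percentage points, with 46.9% ± 8.69 in naive and 43.9% ± 5.38 in CpG cells (SD, n = 3). Kdm5c, a histone demethylase gene long known to escape, had 35.4% ± 2.14 and 37.5% ± 1.91. For 5530601H04Rik it was 25.3% ± 9.10 and 43.8% ± 1.81, for Eif2s3x 27.7% ± 0.864 and 36.8% ± 0.937. Xist had 87.5% ± 1.19 and 88.3% ± 0.650. Rbm3 was thus not the only one of these genes with a higher mean Cast share in CpG cells. How reads shared with near-identical copies of Rbm3, such as the annotated pseudogene Rbm3-ps, were counted is not given in the sources used here, so its share is uncertain.

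The 8 expressed neighbours of Rbm3 in the annotation order had far lower Cast shares. Their mean shares ran from 0.228% to 18.5% in naive cells, with a median of 3.30%, and from 0 to 19.4% in CpG cells, with a median of 3.76%. The nearest expressed genes on either side were Wdr13 and Tbc1d25. They had 2.64% ± 1.27 and 3.95% ± 3.67 in naive cells and 4.59% ± 0.450 and 0 in CpG cells (SD, n = 3). Was, a cytoskeletal regulator of blood cells that lies 2 places from Rbm3 among expressed genes, had 7.56% ± 1.73 and 19.4% ± 1.96. Rbm3os, on the opposite strand with an annotated span that overlaps that of Rbm3, had 1 to 6 reads per sample in the 129 tables and at most 2 in the Cast tables.

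Rbmx2 encodes a spliceosomal protein that belongs to the RES complex, which acts in retention and splicing of precursor RNA and includes Bud13. It had 42, 47 and 41 reads from the 129 allele in naive replicates 1, 2 and 3 and 203, 148 and 235 after CpG. From the Cast allele it had 16, 23 and 17 reads in naive and 95, 85 and 93 in CpG samples. On both alleles every CpG sample lay above every naive sample, with no overlap.

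The 129 allele of Rbmx2 rose from 8.93 ± 0.532 to 32.0 ± 7.44 CPM (SD, n = 3), which is a log2 fold change of 1.83 (± 0.21 SE, adjusted p = 2.77e-04 by edgeR). The Cast allele rose from 3.84 ± 0.682 to 14.9 ± 1.22 CPM, a log2 fold change of 1.94 (± 0.23 SE, adjusted p = 8.49e-05 by edgeR). Over both alleles the log2 fold change was 1.90 (± 0.17 SE, adjusted p = 9.10e-06 by edgeR), the largest of the 5 members. The Cast allele gave 32.4% of that rise, close to the Cast share itself.

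In naive replicate 1 the Cast allele gave 27.6% of Rbmx2 reads (17.8 to 40.2, 95% Wilson interval), in replicate 2 32.9% (23.0 to 44.5) and in replicate 3 29.3% (19.2 to 42.0). In CpG replicates 1, 2 and 3 it was 31.9% (26.9 to 37.4), 36.5% (30.6 to 42.8) and 28.4% (23.8 to 33.5). The groups overlapped, and same-numbered samples differed by 4.29, 3.62 and -0.957 percentage points, CpG minus naive. The log2 change of the Cast to 129 ratio was 0.14 (± 0.24 SE, adjusted p = 0.986 by edgeR), and naive samples held 58 to 70 reads over both alleles to measure it.

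Rbmx2, also chosen for a high Cast share, ranked 5 of 185 X-linked genes by mean Cast share in naive and 7 in CpG cells. The X-linked genes nearest to it in Cast share were Eif2s3x, Kdm5c, Pbdc1, Atrx and 5530601H04Rik, with mean differences of 3.39 to 9.09 percentage points. Eif2s3x, a translation initiation factor gene that escapes in mice, had 27.7% ± 0.864 in naive and 36.8% ± 0.937 in CpG cells (SD, n = 3). The 8 expressed neighbours of Rbmx2 had mean Cast shares of 0 to 7.51% in naive cells. In CpG cells 2 of the 8 were at or above 10%, Stk26 with 22.3% ± 9.70 and Aifm1 with 10.8% ± 10.1 (SD, n = 3), the latter on as few as 10 reads in a sample. Zfp280c and Enox2 were the nearest expressed genes on either side of Rbmx2. They had 2.48% ± 2.52 and 4.29% ± 6.11 in naive and 1.45% ± 0.204 and 1.39% ± 2.41 in CpG cells.

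**Figure D3:**
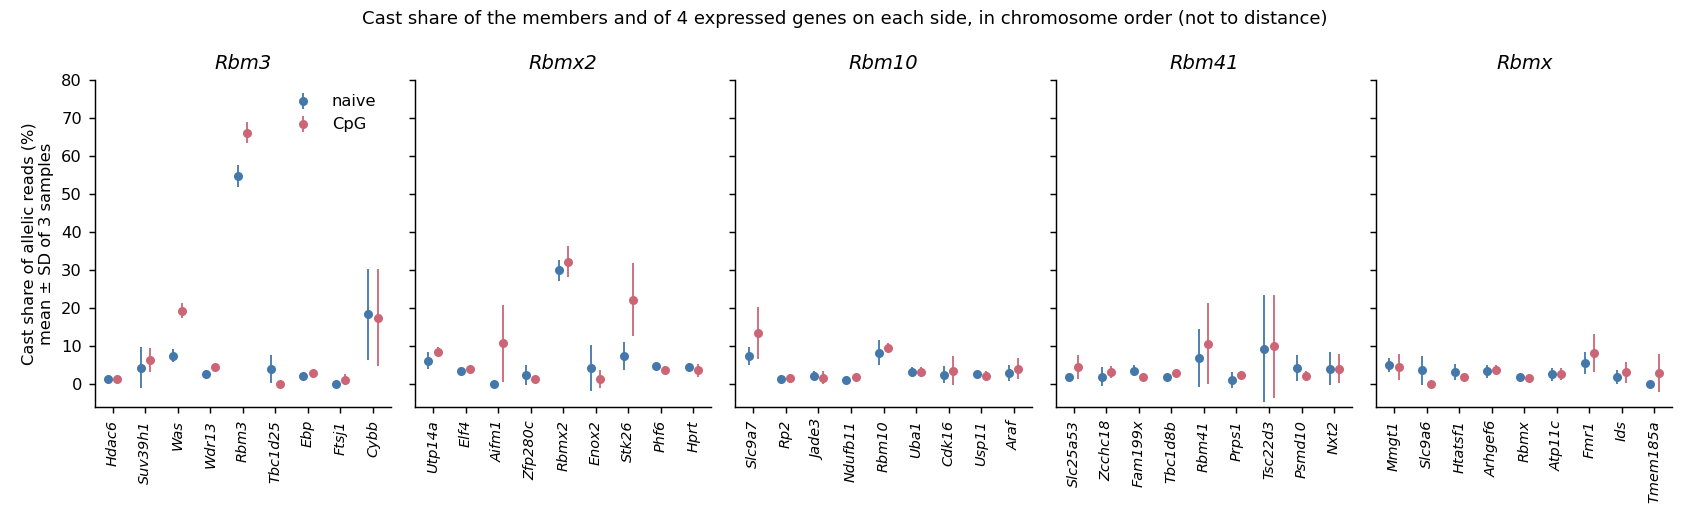
Cast share in percent (mean ± SD of 3 naive and 3 CpG samples) of each member and of the 4 expressed genes on each side of it, in chromosome order and not to distance. By group mean, Rbm3 and Rbmx2 stand above their neighbours, whose means reach 19.4% and 22.3%, while Rbm10, Rbm41 and Rbmx lie among or near theirs. In single CpG samples Stk26 ran from 12.1% to 31.4%, which overlaps Rbmx2 at 28.4% to 36.5%.

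Rbm10 encodes a splicing regulator that is part of early spliceosomal complexes and is related to Rbm5 and Rbm6. It had 124, 108 and 100 reads from the 129 allele in naive replicates 1, 2 and 3 and 261, 255 and 266 after CpG, with a tight spread and no overlap. From the Cast allele it had 9, 7 and 14 reads in naive and 24, 26 and 33 in CpG samples. The 129 allele rose with a log2 fold change of 0.90 (± 0.13 SE, adjusted p = 7.96e-04 by edgeR), from 22.8 ± 1.66 to 42.6 ± 1.65 CPM (SD, n = 3).

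The Cast allele of Rbm10 rose from 2.10 ± 0.925 to 4.52 ± 0.718 CPM (SD, n = 3), which is a log2 fold change of 1.10 (± 0.39 SE, adjusted p = 0.0347 by edgeR). With 9, 7 and 14 naive Cast reads, Rbm10 was tested only because its CpG samples passed the filter on low counts. That call was lost when any sample but naive replicate 3 was left out, with edgeR adjusted p of 0.0899 without naive replicate 1, 0.0992 without naive replicate 2, 0.0537 without CpG replicate 1, 0.0551 without CpG replicate 2 and 0.102 without CpG replicate 3. Without naive replicate 3 it was 0.0165. The Cast share of Rbm10 was 6.77%, 6.09% and 12.3% in naive and 8.42%, 9.25% and 11.0% in CpG replicates 1, 2 and 3, so the groups overlapped. The log2 change of its Cast to 129 ratio was 0.23 (± 0.32 SE, adjusted p = 0.926 by edgeR). Its 8 expressed neighbours had mean Cast shares of 1.24% to 7.51% in naive cells, with a median of 2.60%, and of 1.55% to 13.6% in CpG cells, with a median of 2.69%. Slc9a7 was the highest of them, with 7.51% ± 2.40 and 13.6% ± 6.89, the latter above Rbm10 itself. Uba1, the ubiquitin-activating enzyme gene and the nearest expressed gene on one side, had 3.29% ± 1.27 and 3.25% ± 1.27 (SD, n = 3).

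Rbmx encodes hnRNP G, a nuclear RNA-binding protein that acts in splice-site choice. It had 327, 422 and 336 reads from the 129 allele in naive replicates 1, 2 and 3 and 494, 324 and 540 after CpG. In CPM these were 64.7, 83.2 and 75.5 in naive and 83.3, 51.8 and 87.4 in CpG samples, so the groups overlapped and CpG replicate 2 was the lowest of all 6. The log2 fold change of the 129 allele was -0.01 (± 0.20 SE, adjusted p = 0.969 by edgeR), and over both alleles it was 0.02 (± 0.19 SE, adjusted p = 0.928 by edgeR). Its sign depended on the scaling.

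From the Cast allele Rbmx had 5, 11 and 5 reads in naive and 7, 4 and 15 in CpG samples, a mean Cast share of 1.84% ± 0.609 and 1.77% ± 0.810 (SD, n = 3). Rbmx ranked 153 and 150 of the 185 X-linked genes in naive and CpG cells. Its 8 expressed neighbours had mean shares of 0 to 5.59% in naive and 0 to 8.26% in CpG cells, with medians of 3.35% and 3.03%. Among them Fmr1, which encodes an RNA-binding protein of synapses, had 5.59% ± 2.97 and 8.26% ± 4.88.

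Rbmxl1, an intronless copy of Rbmx on chromosome 8, was named in the Cast tables only. There it had 141, 89 and 95 reads in naive replicates 1, 2 and 3 and 502, 424 and 457 after CpG, a rise with a log2 fold change of 1.75 (± 0.19 SE, adjusted p = 4.23e-05 by edgeR). The copy rose while the X-linked gene did not pass the test, and a test between them was not made. The sources used here do not say how reads common to both were assigned, so values of Rbmx and Rbmxl1 are uncertain.

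Rbm41 encodes a protein that resembles Rnpc3, a component of the minor spliceosome. It was the member with the fewest reads, 46, 34 and 39 from the 129 allele in naive replicates 1, 2 and 3 and 69, 58 and 44 after CpG. Over both alleles its level was 8.84 ± 1.64 in naive and 10.4 ± 1.28 CPM in CpG samples (SD, n = 3), which is a log2 fold change of 0.26 (± 0.25 SE, adjusted p = 0.370 by edgeR). The groups overlapped.

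The Cast reads of Rbm41 followed the replicate number. Replicate 1 had 0 Cast reads in both groups, where a limit of 3 reads allows a share of up to 6.52% in naive and 4.35% in CpG cells and the upper 95% Wilson bound is 7.71% and 5.27%. Replicate 2 had 2 and 7 Cast reads, shares of 5.56% (95% Wilson interval 1.54 to 18.1) and 10.8% (5.31 to 20.6) in naive and CpG cells. Replicate 3 had 7 and 12, shares of 15.2% (7.57 to 28.2) and 21.4% (12.7 to 33.8). The order of the replicates was the same in both groups, and the SD was about as large as the mean, 6.92% ± 7.70 in naive and 10.7% ± 10.7 in CpG cells (SD, n = 3). Its 8 expressed neighbours had mean shares of 1.15% to 9.43% in naive and 1.83% to 9.97% in CpG cells.

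**Figure D4:**
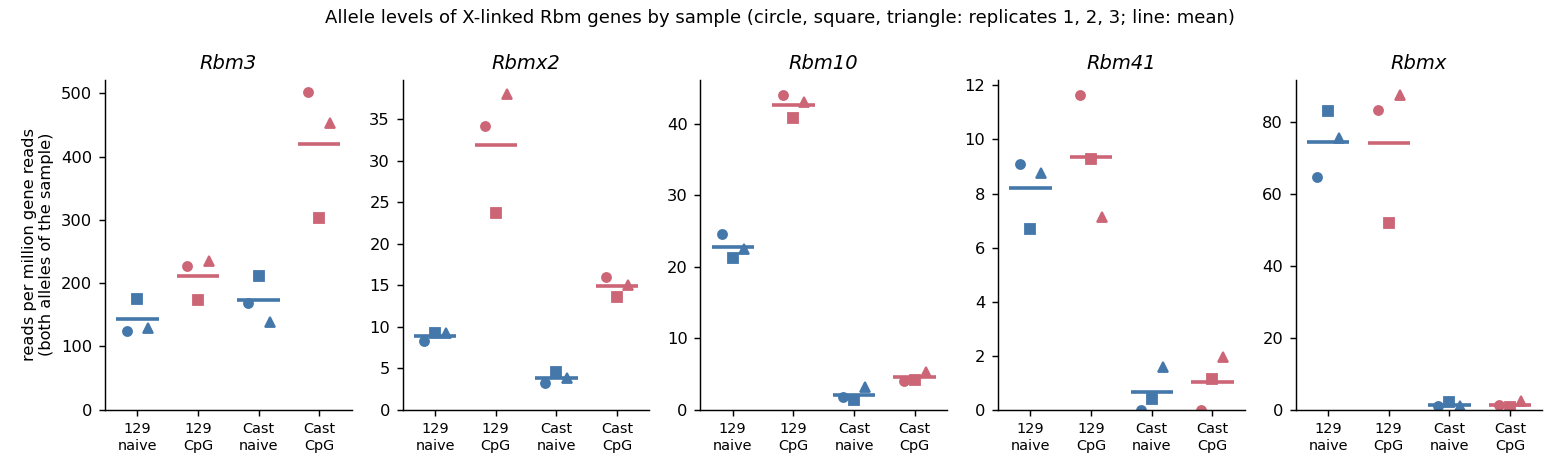
Level in CPM (scaled by gene reads of both alleles) of each member from the 129 and Cast alleles in every sample, with lines at group means; the scale differs between genes. The Cast allele of Rbm3 reaches 302.6 to 502.7 in CpG samples, above its 129 allele at 173.9 to 234.6, while Cast levels of Rbmx and Rbm41 stay at or below 2.43.

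Levels of different members can be compared only per length, from the authors' deposited table of group means, which lists 4 of the 5 members among its 104 genes and not Rbm41. In the authors' deposited table the RPKM over both alleles was 145.1 in naive and 279.1 in stimulated cells for Rbm3. For Rbmx it was 37.9 and 37.2, for Rbmx2 15.8 and 57.3 and for Rbm10 13.1 and 24.5 in the authors' deposited table. Thus Rbm3 was highest of the 4 in both groups, and Rbmx2 lay below Rbmx in naive and above it in stimulated cells. These are means with no error, so neighbours in that order were not tested. The ratio of inactive to active X in the authors' deposited table was 1.04 and 1.74 for Rbm3, 0.367 and 0.410 for Rbmx2, 0.0783 and 0.0932 for Rbm10 and 0.0164 and 0.0168 for Rbmx, in naive and stimulated cells. It divides each allele by its own total and so comes out lower than the ratio of counts.

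Other Rbm genes were called in both directions. Of 39 autosomal Rbm genes listed, 34 were matched and 26 tested: 10 rose, 6 fell and 10 did not pass, with a median log2 fold change of 0.24. Over all tested genes 34.2% were called higher and 34.4% lower, so these counts lie near the background. The largest rises were those of Rbm47, an RNA-binding protein gene linked to RNA editing (log2 fold change 1.89, SE 0.23, edgeR adjusted p = 5.63e-05), the splicing factor gene Rbm17 (1.29, SE 0.09, adjusted p = 1.68e-06) and Rbm19, needed for ribosome biogenesis (0.97, SE 0.10, adjusted p = 1.87e-05). The largest falls were those of Rbm33, Rbm48 and Rbm43, by 1.02, 0.96 and 0.82 on the log2 scale. The 24 autosomal Rbm genes that reached 30 reads in each sample had mean Cast shares of 42.0% to 84.8% in naive cells, with a median of 51.2%, and of 32.9% to 82.8% in CpG cells.

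**Figure D5:**
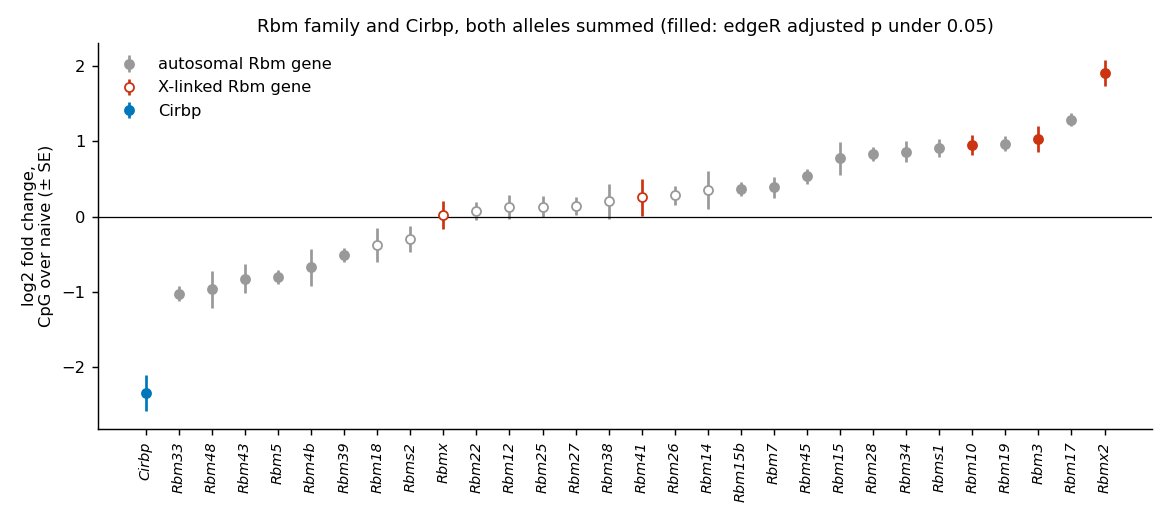
Log2 fold change of CpG over naive samples with its SE, both alleles summed, for the 5 X-linked members, 24 autosomal Rbm genes and Cirbp; filled points passed an edgeR adjusted p of 0.05. Of the genes drawn, Rbmx2 is at the top with 1.90 and Cirbp at the bottom with -2.34. Autosomal Rbm genes that did not reach 30 reads in each sample are not drawn, among them Rbm47 with 1.89.

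Of 3 tested autosomal relatives of the members, 2 fell and 1 did not pass, where 34.4% of all tested genes were called lower. Cirbp, the other cold-inducible gene of the kind of Rbm3, had 32.9, 56.9 and 32.6 CPM in naive and 7.75, 8.32 and 7.45 in CpG samples over both alleles. It fell by 2.34 on the log2 scale (± 0.24 SE, adjusted p = 2.02e-05 by edgeR) with no overlap, where Rbm3 rose by 1.03. Rbm5, a relative of Rbm10, fell by 0.80 (± 0.10 SE, adjusted p = 5.87e-05 by edgeR), from 402.5 ± 10.3 to 226.5 ± 12.2 CPM (SD, n = 3). Rbm6, named in the 129 tables only, had a log2 fold change of -0.13 (± 0.10 SE, adjusted p = 0.305 by edgeR) there. Rnpc3, the relative of Rbm41, had -0.44 (± 0.18 SE, adjusted p = 0.0577 by edgeR), which became a call with the replicate block (adjusted p = 0.0310).

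Bud13, of the same complex as Rbmx2, also rose. It went from 15.9 ± 0.279 to 25.6 ± 1.83 CPM (SD, n = 3), which is a log2 fold change of 0.72 (± 0.15 SE, adjusted p = 0.00223 by edgeR).

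Of 11 minor spliceosome genes tested, 2 rose, 3 fell and 6 did not pass, with a median log2 fold change of -0.21, against 34.2% of all tested genes called higher and 34.4% lower. Snrnp35 rose by 0.99 (± 0.13 SE, adjusted p = 1.15e-04 by edgeR) and Scnm1 fell by 1.12 (SE 0.18, adjusted p = 3.41e-04). Zcrb1 fell by 0.78 (SE 0.13, edgeR adjusted p = 6.28e-04). Snrnp25 rose by 0.78 (edgeR adjusted p = 0.0181), a call lost without naive replicate 1 (adjusted p = 0.0563) or CpG replicate 1 (0.0638). Of 20 genes listed for hnRNP proteins, the abundant nuclear RNA-packaging family to which Rbmx belongs, 17 were matched and tested. Of these 17, 10 rose, 2 fell and 5 did not pass, with a median of 0.64. The background was the same, 34.2% higher and 34.4% lower. Hnrnpab rose by 1.90 (± 0.10 SE, adjusted p = 4.79e-07 by edgeR), Hnrnpa1 by 1.76 (SE 0.11, adjusted p = 9.59e-07) and Hnrnpc by 1.27 (SE 0.11, adjusted p = 6.10e-06). The falls of Hnrnpl (log2 fold change -0.52, edgeR adjusted p = 0.0284) and Hnrnpul2 (-0.28, adjusted p = 0.0355) each kept the call in 2 of 6 fits that left out 1 sample: that of Hnrnpl without naive replicate 3 or CpG replicate 1, and that of Hnrnpul2 without naive replicate 1 or CpG replicate 2. Of 13 genes listed for SR proteins and Tra2, which promote exon inclusion and in part bind Rbmx, 9 were matched and 8 tested. Srsf5, Srsf10 and Srsf11 were named on the 129 side only and Srsf3 on the Cast side only. Of the 8 tested, 7 rose and the other did not pass, with a median of 0.82 and 34.2% of all tested genes called higher. The largest rise was that of Srsf2, with 1.47 (± 0.15 SE, adjusted p = 1.80e-05 by edgeR). Srsf9 rose by 1.31 (edgeR adjusted p = 8.98e-05) and Srsf6 by 0.86 (adjusted p = 1.19e-04).

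By change over the 6 samples, with both alleles summed and each gene centred on its mean log2 level, the genes most like Rbm3 among 8852 were Heatr6 on chromosome 11 and Fkbp1a on chromosome 2. They differed from it by a root mean square of 0.0951 and 0.0987 on the log2 scale. For Rbmx2 these were Zfp827 (0.0575) and Pop1 (0.0927), for Rbm10 Ddx10 (0.0430) and Man1a2 (0.0441), for Rbmx Megf9 (0.0941) and Ms4a4c (0.0941) and for Rbm41 Mettl26 (0.0921) and Gemin7 (0.105). All 10 are autosomal. Likeness was measured in the samples of the comparison itself and is a description.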

How the data were processed

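The members and gene lists were chosen with earlier results of these data known. Total RNA was extracted with TRIzol and made into libraries with a stranded total RNA kit, per the labels. The submitters' processing notes name STAR, featureCounts, Subread 2.0.0 and mm10. From the authors, 12 tables of raw counts per gene were used, a 129 and a Cast table for each of 6 samples, with strain annotation identifiers. The other 12 of the 18 samples are not analysed here. Rules for giving a read to a strain are not given in the sources used here, nor is use of strand in counting. The authors' deposited table of 104 genes holds mean RPKM, mean SRPM (a score per allele, not spelled out per the file headers) and their ratio. SRPM recomputed as 10000000 times count over the gene total of the strain table matched the deposited values of 4 members with a quotient of 1.

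Reads in no annotated gene stayed out of library sizes. Their share was taken of reads in genes, in no gene and counted as ambiguous. In the 129 tables it was 62.65% to 67.1% in naive and 48.1% to 56.7% in CpG samples. In the Cast tables it was 57.95% to 62.05% in naive and 44.5% to 52.25% in CpG samples. The groups thus did not overlap, and the effect of this on the comparisons was not tested. Genes with no name took 5.10% to 7.59% of gene reads in the 129 and 14.4% to 19.7% in the Cast tables. Genes were matched by a name used once in each strain and the same chromosome. edgeR 4.0.16 in R 4.3.3 tested all genes (quasi-likelihood test, robust, TMM, filterByExpr, Benjamini-Hochberg), with SE from the F statistic. The ratio test had a term for each sample, 1 library size for both alleles and genes with at least 10 reads in at least 3 samples. DESeq2 1.42.0 was an alternative. The functions were tested on simulated data. Samples of a group differed from each other by more than counting noise, with chi-square per degree of freedom of 5.96 to 15.7.

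Same-numbered naive and CpG samples deviated together from their group means: by the numbers in the sample titles, r was 0.182, 0.155 and 0.206 for levels over 10343 genes, against negative values for all other pairs, and 0.724, 0.633 and 0.728 for the log2 Cast to 129 ratio over 7449 genes, so the numbers were taken to pair the samples. Cast shares of members were not tested as levels, since members were chosen on them. Named genes were all members, their relatives and Bud13, up to 3 largest rises and falls of each other list among called genes with a mean of at least 30 reads, the 5 nearest in share, the 2 nearest in level, and 4 neighbours each side with at least 10 reads. Neighbour order came from GRCm38.p6, where 7 X-linked genes with enough reads had no match. One gene under this rule is not reported here.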

Additional observations from a re-analysis of the deposited data

Results flagged for a closer look

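The rise of Rbm3 with CpG differed between the alleles in the paired test of the Cast to 129 ratio, with a log2 difference of 0.69 (± 0.09 SE, adjusted p = 1.64e-08 by edgeR). The Cast share was higher in 3 of 3 same-numbered pairs. Rbm3 was chosen on its Cast share with this change known, so the test is no independent evidence. The p of the paired test also rests largely on spread estimated from other genes. Without the block Rbm3 did not pass (edgeR adjusted p = 0.0625, and 0.121 to 0.199 in the 6 fits that left out 1 sample).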

How the results depend on the processing

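The count of genes with a changed allele ratio depended most on the fit: 95 in the reported one, 779 with the replicate block, 14 to 26 when 1 sample was left out, and 0 of 275 with X-linked genes fitted alone, where 17 had an unadjusted p under 0.05. Counts of genes changed by CpG stayed within 1.5 times of the reported ones under every alternative run. For Rbm3 the log2 change of the ratio was 0.69 with the replicate block, which turned it into a call, and the 129 log2 fold change ran from 0.48 to 0.72 without 1 sample, called in 2 of 6 fits. The Cast log2 fold change of Rbm10 ran from 0.89 to 1.52, called in 1 of 6. With each allele divided by its own total, the Cast share of Rbm3 was 50.7% in naive and 63.2% in CpG cells and that of Rbmx2 26.7% in naive cells. The sign of Rbmx, never called, turned to 0.0056 in the 129 tables with no filter on low counts, and over both alleles to -0.0066 with DESeq2 size factors, -0.0067 with DESeq2 and -0.0031 with the block. Without 1 sample Rbmx ran from -0.14 to 0.17 (129), from -0.12 to 0.20 (both alleles) and from -0.49 to 0.27 (ratio), and the ratio of Rbm41 from -0.46 to 1.94. The block changed no other call of a member. Rbmx and Rbm41 gave no value in the Cast tables under the filter, nor in the ratio with 10 reads asked of each allele. Why these values moved was not tested. Depth limits Rbm41 and the Cast reads of Rbmx.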

Other observations

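Shares that followed the replicate number, as for Rbm41, were seen in other genes too, which were picked after their values were seen. Tsc22d3, 2 expressed genes from Rbm41, had Cast shares of 1.58%, 1.09% and 25.6% in naive replicates 1, 2 and 3 and of 0, 4.41% and 25.5% in CpG replicates 1, 2 and 3. Cybb, the fourth expressed neighbour of Rbm3, went the other way, with 26.3%, 24.4% and 4.71% in naive and 25.5%, 24.3% and 2.76% in CpG samples. On chromosome 11, Srsf2 had 53.6%, 57.8% and 98.1% in naive and 52.4%, 48.7% and 97.0% in CpG samples. On chromosome 14, Hnrnpc had 49.0%, 79.1% and 54.2% in naive and 49.9%, 79.5% and 54.6% in CpG samples. The shares of Rbm3 did not split by number in this way.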
